A study of Homo sapiens with 12 samples.

Results

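The members described here are 10 genes for intracellular brakes on growth factor signalling, 6 dual-specificity phosphatases (DUSP2, DUSP4, DUSP5, DUSP6, DUSP7 and DUSP8), 2 Sprouty genes (SPRY2 and SPRY4) and 2 SPRED genes (SPRED1 and SPRED2). They were chosen by symbol, and each of the 10 matched 1 entry among the 60668 genes counted. RNA was measured in MOLM-13, an established human line of acute myeloid leukaemia with an MLL-AF9 fusion and with a FLT3 receptor kinase gene altered by an internal tandem duplication. All cells grew in the same serum-containing medium for 8 days, in 4 groups of 3 libraries from cultures seeded in triplicate. The groups received gilteritinib together with MI-3454 (the combination), MI-3454 alone, gilteritinib alone, or the solvent DMSO. MI-3454 keeps menin from binding MLL1, and gilteritinib inhibits the FLT3 kinase. Doses were not stated in the labels. Groups follow the sample titles, because the treatment labels of replicates 2 and 3 in both MI-3454 groups write the compound with another final digit. Everything rests on 1 cell line, and p-values measure only the spread between these cultures.

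FLT3 and other receptor kinases activate RAS, which passes the signal through RAF and MEK to the kinase ERK. ERK enters the nucleus and switches on genes, among them genes for its own inhibitors, so that the pathway limits itself. DUSP proteins of this family remove phosphate from the activating threonine and tyrosine of MAP kinases. DUSP2, DUSP4 and DUSP5 act in the nucleus, DUSP6 and DUSP7 in the cytoplasm with a preference for ERK, and DUSP8 on the stress kinases JNK and p38. Sprouty proteins act between the receptor and RAF, and SPRED proteins bring the RAS inhibitor neurofibromin to the membrane. In FLT3-mutant leukaemia cells some of these genes, though not all, are commonly read as a trace of signalling through ERK.

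The promoter-proximal sequences of DUSP8, DUSP7 and DUSP2 are shown because these 3 members fell most with the combination. None of the windows overlaps an exon of its gene in GENCODE release 29. Each holds the 250 bases before the transcription start in RefSeq (GRCh38.p14), written 5′ to 3′ on the minus strand, on which all 3 genes lie. The windows are chr11:1572272-1572521 for DUSP8, chr3:52056572-52056821 for DUSP7 and chr2:96145441-96145690 for DUSP2. Capitals mark matches, on either strand, to a cyclic AMP response element (TGACGTCA) or an E-box (CACGTG).
DUSP8: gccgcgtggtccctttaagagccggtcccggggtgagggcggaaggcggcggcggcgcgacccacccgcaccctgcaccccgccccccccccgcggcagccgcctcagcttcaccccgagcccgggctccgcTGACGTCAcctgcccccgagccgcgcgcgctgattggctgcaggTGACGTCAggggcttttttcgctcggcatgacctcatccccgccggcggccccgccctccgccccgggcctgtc
DUSP7: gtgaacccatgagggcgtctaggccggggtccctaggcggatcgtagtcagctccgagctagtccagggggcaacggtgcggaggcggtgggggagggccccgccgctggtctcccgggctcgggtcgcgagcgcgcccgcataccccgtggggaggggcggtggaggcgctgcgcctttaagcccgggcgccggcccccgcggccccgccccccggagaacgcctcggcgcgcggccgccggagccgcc
DUSP2: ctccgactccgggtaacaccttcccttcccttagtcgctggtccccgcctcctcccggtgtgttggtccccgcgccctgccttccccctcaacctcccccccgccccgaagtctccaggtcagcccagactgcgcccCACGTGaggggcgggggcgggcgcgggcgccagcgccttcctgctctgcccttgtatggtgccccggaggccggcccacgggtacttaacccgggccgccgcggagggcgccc
The DUSP8 window held 2 cyclic AMP response elements, a motif found in 1.65% of all 35116 windows of this length. The DUSP2 window held 1 E-box, found in 6.34% of windows, and the DUSP7 window held no match to either or to the ETS (CCGGAAG), AP-1 (TGANTCA) and STAT (TTCNNNGAA) motifs searched. These are letter matches only. RefSeq windows were examined for 8 of the 10 members. None was found for DUSP5, and none was used for DUSP4.

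Gene counts per library ran from 6472940 to 12051457. Reads placed uniquely but outside annotated exons made up 28.5% to 36.5% of uniquely placed reads with the combination, 17.4% to 25.5% with MI-3454, 15.6% to 17.8% with gilteritinib and 16.6% to 20.4% with DMSO. In each group 1 library had the highest share of RN7SL1, an abundant small cytoplasmic RNA: combination 1, MI-3454 3, gilteritinib 2 and DMSO 2. All 8 genes listed as markers of the line, CD33, FLT3 and MEIS1 among them, were expressed well enough to be tested, but several moved with treatment. FLT3 fell with the combination (190.6 CPM, the count scaled to library size with TMM), with MI-3454 (228 CPM) and with gilteritinib (519 CPM), against 696 CPM with DMSO. MEIS1, a leukaemia gene that depends on menin, was at 5.11 CPM with the combination, 10.96 with MI-3454 and 92.7 with gilteritinib, against 67.6 with DMSO. HOXA9 fell with the combination and MI-3454 (log2 changes of -1.08 and -0.70), and LYZ, the lysozyme gene of myeloid cells, rose under all 3 treatments (5.03 with the combination, 4.24 with MI-3454 and 0.72 with gilteritinib). Of 10 monocyte maturation genes, 9 could be tested. With the combination 9 rose, with MI-3454 8 rose and with gilteritinib 2 rose, where 29.2%, 10.1% and 6.92% of all genes tested were called higher. The summed level of the 10 was 833 to 846, 593 to 622 and 176 to 184 CPM, against 165 to 186 CPM with DMSO. FCN1 was the only one of them at 0 in DMSO. T cell, B cell, erythroid and stromal markers summed to under 5 CPM in every library and epithelial markers to 15.04 CPM at most. The part of maturation and of reads outside exons in the changes below was not tested, and in bulk RNA fewer expressing cells and less RNA per cell cannot be told apart.

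Together the members were lowest with the combination. Summed per kilobase of exon, so that genes of different length can be compared, they reached 47.3, 45.2 and 41.7 CPM per kilobase with the combination, 67.3, 64.8 and 68.7 with MI-3454, 72.8, 75.8 and 74.2 with gilteritinib, and 92.8, 106 and 84.9 with DMSO. Every treated library lay below every DMSO library (exact permutation test, two-sided p = 0.1 for each treatment, the smallest that 3 against 3 can give). Without DUSP7, a sum formed after the values were seen, the other members reached 30.1 to 32.1 CPM per kilobase with the combination, 46.6 to 48.97 with MI-3454 and 42.5 to 43.7 with gilteritinib, against 41.99 to 48.7 with DMSO. The combination alone then lay below DMSO (exact permutation p = 0.1), and the libraries of the single agents overlapped those with DMSO (exact permutation p = 0.3 with MI-3454 and 0.8 with gilteritinib). The Sprouty and SPRED genes summed to 14.0 to 14.8 CPM per kilobase with the combination and 20.9 to 22.2 with MI-3454. With gilteritinib the sum was 19.1 to 20.6, and with DMSO 18.8 to 20.7. MI-3454 lay narrowly above DMSO (lowest 20.94 against highest 20.74, exact permutation p = 0.1). None of SPRY2, SPRY4, SPRED1 and SPRED2 was called with MI-3454 against DMSO, and SPRED1 had a log2 change of -0.44. DUSP7 was the most abundant member in every group. It made up 30.0% ± 2.23 of the sum with the combination, 28.6% ± 3.13 with MI-3454, 42.2% ± 1.51 with gilteritinib and 52.8% ± 2.80 with DMSO (SD, n = 3 each). With DMSO, the level per kilobase after DUSP7 (49.97) was 11.7 for DUSP2, 8.70 for SPRY2, 8.69 for SPRED2, 5.73 for DUSP5, 4.36 for DUSP6, 3.01 for DUSP8, 1.77 for SPRED1 and 0.490 for SPRY4.

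**Figure D1:**
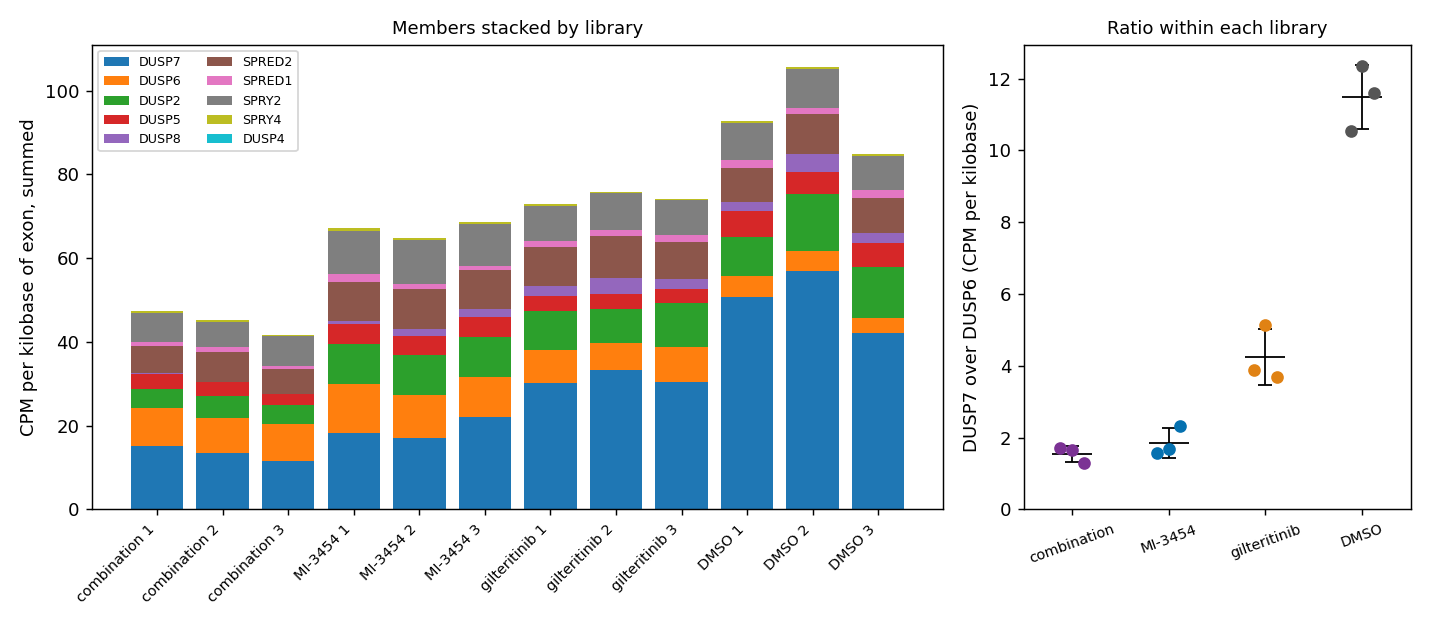
Left, levels of the members in CPM per kilobase of exon, stacked for each of the 12 libraries; right, DUSP7 over DUSP6 within each library (points) with mean ± SD (n = 3). The stack is lowest with the combination, the DUSP7 part is smaller in treated than in DMSO libraries, and the DUSP6 part is larger.

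The cytoplasmic ERK phosphatases DUSP6 and DUSP7 moved in opposite directions under every treatment. DUSP6 (ENSG00000139318.8, GRCh38 chromosome 12, 89347232 to 89353271, minus strand) stood at 41.6, 37.9 and 41.4 CPM with the combination, 54.1, 47.5 and 44.3 CPM with MI-3454, and 36.0, 30.1 and 38.2 CPM with gilteritinib, against 22.3, 21.4 and 16.8 CPM with DMSO. Every treated library lay above every DMSO library, and the MI-3454 libraries were the highest. The log2 change against DMSO was 0.99 ± 0.13 (SE) with the combination, 1.27 ± 0.15 with MI-3454 and 0.78 ± 0.14 with gilteritinib (edgeR quasi-likelihood adjusted p = 6.8e-06, 6.8e-05 and 0.0029). Between treatments, MI-3454 exceeded gilteritinib by 0.47 ± 0.12 (adjusted p = 0.021), a call that ended without MI-3454 1 (adjusted p = 0.095), gilteritinib 1 (0.061) or gilteritinib 2 (0.076). The combination did not differ beyond the test from MI-3454 (-0.26 ± 0.11, adjusted p = 0.086) or from gilteritinib (0.22 ± 0.10, adjusted p = 0.077). An antisense gene on the opposite strand, AC024909.2, shares 1875 exon bases with DUSP6 in GENCODE release 29, which is 40.5% of the DUSP6 exon bases. It had 46 counts in all libraries, against 4142 for DUSP6. The strand setting was not stated, so reads from the shared bases may be missing from both counts as ambiguous. Ambiguous reads were 4.65% to 5.821% of uniquely placed reads with the combination and 6.002% to 10.254% with MI-3454. With gilteritinib they were 7.506% to 10.197%, and with DMSO 6.431% to 9.453%. Their part in the DUSP6 levels was not tested.

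DUSP7 (ENSG00000164086.10, chromosome 3, 52048919 to 52056550, minus strand) fell under every treatment and most with the combination. It had 86.1, 76.8 and 65.4 CPM with the combination, 103, 96.7 and 125 CPM with MI-3454, 171, 188 and 172 CPM with gilteritinib, and 287, 322 and 238 CPM with DMSO. The 4 groups did not overlap, in the order combination, MI-3454, gilteritinib, DMSO from low to high. Against DMSO the log2 change was -1.89 ± 0.13 with the combination, -1.38 ± 0.15 with MI-3454 and -0.67 ± 0.12 with gilteritinib (edgeR adjusted p = 3.7e-09, 3.5e-05 and 0.0029). All 6 pairs of groups were called different. The smallest step, the combination against MI-3454 (-0.50 ± 0.13, adjusted p = 0.011), was not called without combination 3 (-0.41, adjusted p = 0.062). In each of the 4 groups the library highest in RN7SL1 also had the most DUSP7. Without those 4 libraries the changes against DMSO were -1.88 with the combination, -1.40 with MI-3454 and -0.61 with gilteritinib, and all remained called.

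The balance of the pair within a library does not depend on scaling between libraries. DUSP7 per DUSP6, both per kilobase, was 1.70, 1.66 and 1.29 with the combination, 1.57, 1.67 and 2.32 with MI-3454, 3.88, 5.13 and 3.70 with gilteritinib, and 10.5, 12.3 and 11.6 with DMSO. Combination and MI-3454 libraries overlapped, and no treated library reached the range of the DMSO libraries (exact permutation test, two-sided p = 0.1 for each treatment). In every group the ratio was highest in the library highest in RN7SL1, so it is not free of differences between libraries. This ratio was chosen after the levels of both genes were seen. The part in it of reads from bases that DUSP6 shares with its antisense gene was not tested.

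**Figure D2:**
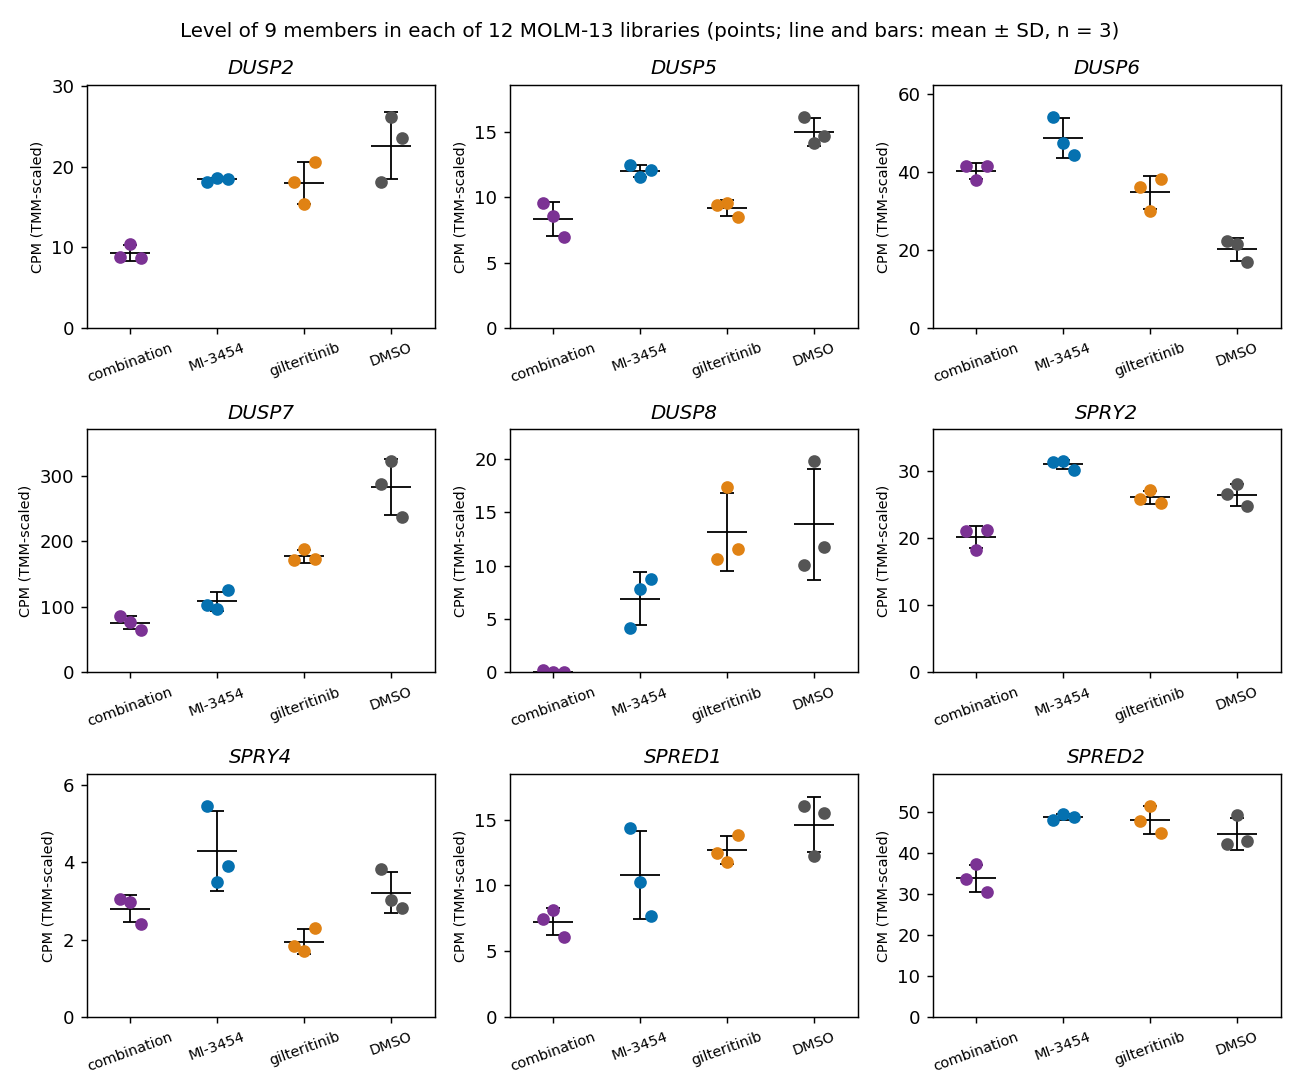
Level in CPM (TMM-scaled, axis from 0) of each of the 9 members with enough counts, for combination, MI-3454, gilteritinib and DMSO; points are libraries, lines and bars mean ± SD (n = 3). DUSP6 lies lowest with DMSO, DUSP7 steps down from DMSO to the combination, and DUSP8 is near 0 only with the combination.

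DUSP8 (ENSG00000184545.11, chromosome 11, 1554044 to 1571920, minus strand), the JNK and p38 phosphatase gene, was nearly undetected with the combination. Its counts were 3, 0 and 0 with the combination, 37, 76 and 81 with MI-3454, 127, 143 and 105 with gilteritinib, and 111, 209 and 109 with DMSO. In CPM these were 0.26, 0 and 0, then 4.12, 7.81 and 8.79, then 10.6, 17.3 and 11.5, and with DMSO 10.1, 19.8 and 11.8. The combination libraries lay far below all others, the MI-3454 libraries below those of gilteritinib and DMSO, and gilteritinib and DMSO overlapped. Pooled over libraries, DUSP8 was 130 times lower with the combination than with DMSO (exact 95% interval 44.2 to 633), 64.9 times lower than with MI-3454 (21.9 to 318) and 120 times lower than with gilteritinib (40.6 to 582). These intervals cover counting error only. All 3 differences were called (edgeR adjusted p = 7.8e-09, 4.7e-05 and 2.9e-08), and the fitted log2 change of -6.86 ± 0.51 against DMSO rests on those 3 counts, all in combination 1. The fitted value is no bound: it ran from -10.04 to -6.33 over the alternatives, against MI-3454 from -8.94 to -5.31 and against gilteritinib from -9.90 to -6.22, and it was -9.65 against DMSO without the libraries highest in RN7SL1.

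With MI-3454 alone DUSP8 was lower by a log2 change of -1.0 ± 0.30 against DMSO (edgeR adjusted p = 0.035). That call ended without DMSO 2 (-0.65, adjusted p = 0.105), MI-3454 1 (-0.74, 0.12) or MI-3454 2 (-1.10, 0.0647). With gilteritinib alone the log2 change was -0.09 ± 0.25 (adjusted p = 0.85). MI-3454 against gilteritinib gave -0.92 ± 0.27 (adjusted p = 0.036), which ended without MI-3454 1 (adjusted p = 0.12), MI-3454 2 (0.069), gilteritinib 2 (0.12) or gilteritinib 3 (0.056). In each group the library highest in RN7SL1 also had the most DUSP8. Without those 4 libraries DUSP8 had no counts with the combination, and MI-3454 against DMSO gave -0.86 (adjusted p = 0.018). How reads were divided between DUSP8 and similar copies is not stated, so its level is uncertain. The related entry DUSP8P5 had 285 counts with the combination, 255 with MI-3454, 390 with gilteritinib and 289 with DMSO.

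Of the nuclear phosphatases, DUSP2 was lower with the combination than in any other group. DUSP2 (ENSG00000158050.5, chromosome 2, 96143166 to 96145440, minus strand), a phosphatase known from blood cells, had 8.85, 10.5 and 8.65 CPM with the combination, 18.2, 18.6 and 18.6 CPM with MI-3454, 18.1, 15.4 and 20.5 CPM with gilteritinib, and 18.1, 26.2 and 23.6 CPM with DMSO. The combination stood clear of the other groups, which overlapped each other. The combination gave log2 changes of -1.27 ± 0.17 against DMSO, -0.97 ± 0.14 against MI-3454 and -0.94 ± 0.14 against gilteritinib (edgeR adjusted p = 6.2e-06, 0.00048 and 6.5e-05). Against DMSO, MI-3454 gave -0.29 ± 0.16 (adjusted p = 0.24) and gilteritinib -0.32 ± 0.16 (adjusted p = 0.20).

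DUSP5 (ENSG00000138166.6, chromosome 10, 110497838 to 110511544, plus strand), an ERK-specific phosphatase of the nucleus, fell with gilteritinib and with the combination. It had 9.54, 8.56 and 6.95 CPM with the combination, 12.5, 11.5 and 12.04 CPM with MI-3454, 9.43, 9.58 and 8.46 CPM with gilteritinib, and 16.2, 14.1 and 14.7 CPM with DMSO. Combination and gilteritinib libraries overlapped and lay below the MI-3454 libraries, which lay below those with DMSO. The log2 change against DMSO was -0.83 ± 0.16 with the combination (edgeR adjusted p = 0.0004), -0.32 ± 0.15 with MI-3454 (adjusted p = 0.17) and -0.71 ± 0.14 with gilteritinib (adjusted p = 0.0051). The combination against gilteritinib gave -0.11 ± 0.16 (adjusted p = 0.57), and against MI-3454 -0.50 ± 0.16 (adjusted p = 0.037). The last call ended under 7 of 13 alternatives, with adjusted p up to 0.14, among them without MI-3454 1, MI-3454 2, combination 2 or combination 3. The related entry DUSP5P1 had 137 counts with the combination, 124 with MI-3454, 35 with gilteritinib and 82 with DMSO. DUSP4 (chromosome 8), another nuclear phosphatase, had 1 count with the combination, 0 with MI-3454, 0 with gilteritinib and 6 with DMSO, too few to test. A count of 0 allows a level of up to 0.107 CPM with MI-3454 and 0.102 CPM with gilteritinib over the pooled libraries.

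**Figure D3:**
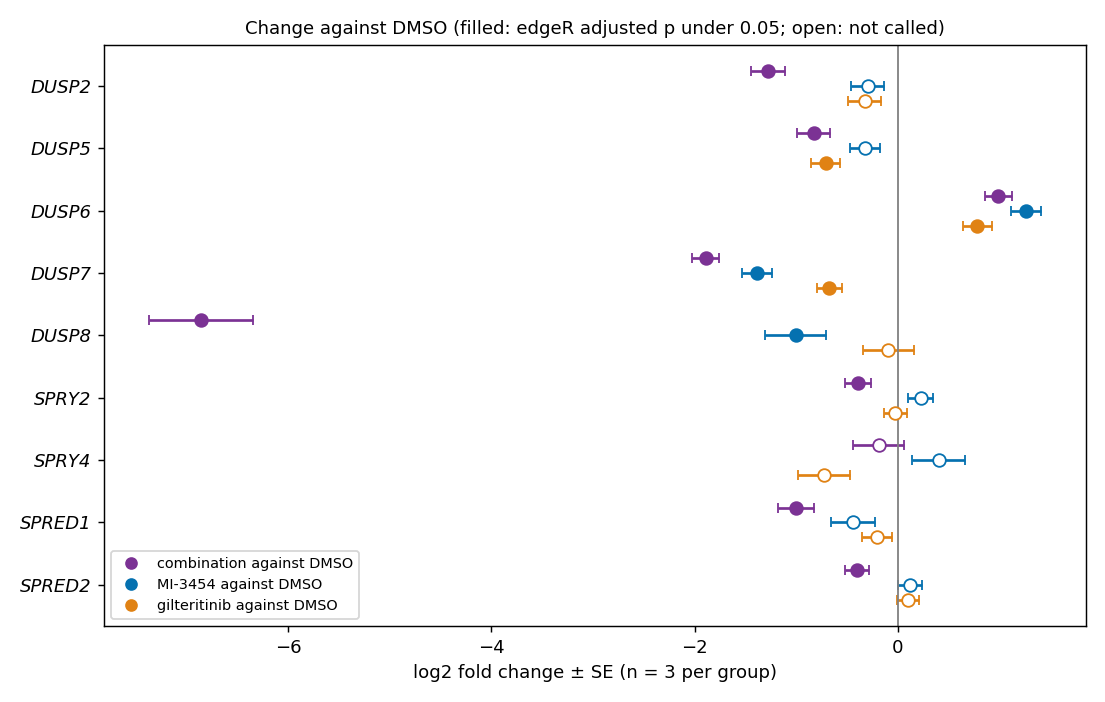
Log2 fold change ± SE against DMSO of the 9 tested members, for the combination, MI-3454 and gilteritinib (n = 3 per group; filled points, edgeR adjusted p under 0.05). DUSP6 is the one member on the right of 0 with a call, under all 3 treatments, and DUSP8 with the combination lies far left at -6.86.

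Of the Sprouty and SPRED genes, SPRY2, SPRED1 and SPRED2 were lower than DMSO with the combination. SPRY2 (ENSG00000136158.12, chromosome 13, 80335976 to 80340951) had 21.0, 18.3 and 21.3 CPM with the combination, 31.3, 31.4 and 30.2 CPM with MI-3454, 25.8, 27.2 and 25.3 CPM with gilteritinib, and 26.5, 28.03 and 24.8 CPM with DMSO. The combination libraries were the lowest and the MI-3454 libraries the highest, with gilteritinib and DMSO overlapping between them. The log2 change was -0.39 ± 0.13 for the combination against DMSO (edgeR adjusted p = 0.015), -0.61 ± 0.11 against MI-3454 (0.0023) and -0.36 ± 0.10 against gilteritinib (0.008). The call against DMSO ended with total counts in place of TMM (-0.29, adjusted p = 0.069) and without combination 2 (-0.32, adjusted p = 0.11). The call against gilteritinib ended under the same settings (adjusted p = 0.08 and 0.059). MI-3454 alone gave 0.23 ± 0.12 against DMSO (adjusted p = 0.24).

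SPRY4 (ENSG00000187678.9, chromosome 5, 142310427 to 142326455) was the least abundant tested member per kilobase, apart from DUSP8 with the combination, and its change against DMSO was called only for gilteritinib, in the fit with a replicate block. It had 3.04, 2.96 and 2.41 CPM with the combination, 5.46, 3.49 and 3.90 CPM with MI-3454, 1.84, 1.70 and 2.31 CPM with gilteritinib, and 3.81, 3.03 and 2.80 CPM with DMSO. The gilteritinib libraries lay below those of every other group. MI-3454 exceeded gilteritinib by a log2 change of 1.12 ± 0.27 (edgeR adjusted p = 0.014), which ended without MI-3454 1 (adjusted p = 0.069) or gilteritinib 1 (0.061). Gilteritinib against DMSO gave -0.73 ± 0.26 without the block (adjusted p = 0.077) and -0.74 with it (adjusted p = 0.036). Whether same-numbered cultures of these groups form pairs is uncertain. With the combination the change was -0.19 ± 0.26 (adjusted p = 0.55).

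SPRED1 (ENSG00000166068.13, chromosome 15, 38252326 to 38357249), lost in Legius syndrome, had 7.46, 8.13 and 6.10 CPM with the combination, 14.4, 10.3 and 7.70 CPM with MI-3454, 12.4, 11.8 and 13.8 CPM with gilteritinib, and 16.1, 12.2 and 15.5 CPM with DMSO. Its MI-3454 libraries spread across almost the whole range of the other groups. With the combination the log2 change was -1.0 ± 0.18 against DMSO (edgeR adjusted p = 0.00013) and -0.79 ± 0.15 against gilteritinib (0.00049), whereas against MI-3454 it was -0.55 ± 0.23 (0.085). Without MI-3454 3, the lowest of its group, that last difference was -0.74 (adjusted p = 0.007). In 3 of the 4 groups the library highest in RN7SL1 had the least SPRED1, and without those 4 libraries the change with the combination against DMSO was -1.13. SPRED2 (ENSG00000198369.10, chromosome 2, 65310851 to 65432637) had 33.7, 37.3 and 30.6 CPM with the combination, against 48.1 to 49.5 CPM with MI-3454, 45.1 to 51.7 CPM with gilteritinib and 42.2 to 49.3 CPM with DMSO. The combination alone stood apart, by -0.40 ± 0.12 against DMSO (edgeR adjusted p = 0.0091), -0.52 ± 0.11 against MI-3454 (0.0037) and -0.50 ± 0.10 against gilteritinib (0.00052). The first of these calls ended without combination 3 (-0.34, adjusted p = 0.057).

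Counted over the 9 tested members, the combination against DMSO gave 7 lower, 1 higher and 1 not called, where 57.5% of all 13972 genes tested were called (28.4% lower, 29.2% higher). MI-3454 against DMSO gave 2 lower and 1 higher, with 19% of all genes called (8.95% lower, 10.1% higher). Gilteritinib against DMSO also gave 2 lower and 1 higher, with 15.1% of all genes called (8.18% lower, 6.92% higher). Deviations of same-numbered gilteritinib and DMSO cultures correlated at 0.14, 0.39 and 0.11, but differently numbered ones reached 0.21, so their pairing is uncertain. With the culture number added as a replicate block, DUSP2 (-0.31, edgeR adjusted p = 0.035) and SPRY4 (-0.74, adjusted p = 0.036) were also lower. This made 4 members lower and 1 higher, where 4928 of all 13972 genes were called, against 2110 without the block. The median log2 change of the tested members was -0.83 with the combination, -0.29 with MI-3454 and -0.20 with gilteritinib. That of all genes was within 0.003 of 0 in each, which TMM scaling largely sets in advance. These 3 comparisons share the DMSO libraries. The members were chosen with earlier results of these data known, so their counts beside those of all genes are no independent support.

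Set against the single agents, the combination lowered 6 of the 9 members in either case and raised none. Against MI-3454 these were DUSP2, DUSP5, DUSP7, DUSP8, SPRY2 and SPRED2, where 29.2% of all genes were called (15.1% lower, 14.1% higher). Against gilteritinib these were DUSP2, DUSP7, DUSP8, SPRY2, SPRED1 and SPRED2, where 60.4% of all genes were called (30.3% lower, 30.1% higher). Both comparisons share the combination libraries. MI-3454 against gilteritinib gave 2 higher (DUSP6 and SPRY4) and 2 lower (DUSP7 and DUSP8), with 17.4% of all genes called (9.96% higher, 7.43% lower).

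The interaction term asks whether the combination departs from the sum of the single-agent log2 changes. It was called for 4 members, all in the lower direction, where 15.3% of all genes were called (8.74% lower, 6.55% higher). DUSP6 reached 0.99 with the combination, whereas the single agents summed to 2.05, an interaction of -1.05 ± 0.18 (edgeR adjusted p = 0.001). SPRY2 and SPRED2 were at -0.39 and -0.40 with the combination, against sums of 0.21 and 0.23, with interactions of -0.60 ± 0.14 (adjusted p = 0.011) and -0.63 ± 0.14 (adjusted p = 0.0083). The SPRY2 term was not called with total counts (-0.47, adjusted p = 0.052). DUSP8 was at -6.86 against a sum of -1.09, an interaction of -5.77 ± 0.79 (adjusted p = 0.00019), which again rests on 3 counts and ran from -8.95 to -5.21 over the alternatives. DUSP7 lay close to additivity, at -1.89 against a sum of -2.05 (interaction 0.17 ± 0.18, adjusted p = 0.57). DUSP2 was at -1.27 against a sum of -0.62 (interaction -0.66 ± 0.22, adjusted p = 0.051), and it was called without DMSO 2 (-0.78, adjusted p = 0.019) or gilteritinib 2 (-0.73, adjusted p = 0.045).

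**Figure D4:**
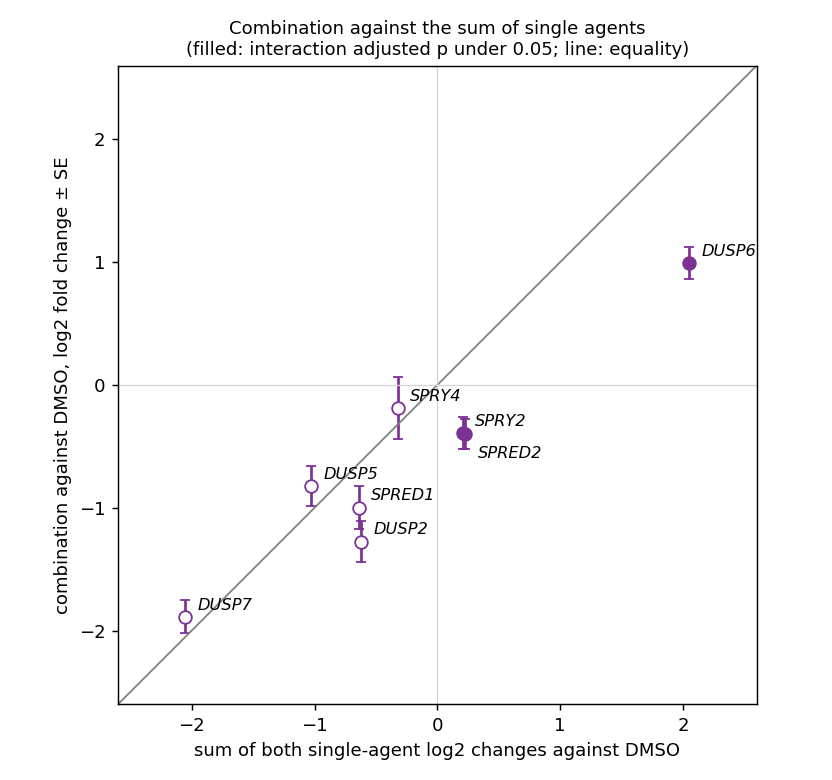
Log2 change of the combination against DMSO (± SE, n = 3 per group) plotted over the sum of both single-agent log2 changes for 8 members; the line marks equality and filled points have an interaction adjusted p under 0.05. DUSP6, SPRY2 and SPRED2 lie below the line and DUSP7 close to it; DUSP8, at -6.86 over a sum of -1.09, is left out of the range drawn.

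Other genes of the pathway were counted from lists. For comparison, 57.5% of all genes tested were called with the combination, 19% with MI-3454 and 15.1% with gilteritinib, each against DMSO. Among 16 tested dual-specificity phosphatase genes outside the members, the combination raised 5 and lowered 5 against DMSO, MI-3454 2 and 2, and gilteritinib 1 and 2. DUSP14 was lower under all 3, at 5.58 CPM with the combination, 10.0 with MI-3454, 17.4 with gilteritinib and 26.1 with DMSO (log2 changes of -2.20 ± 0.16, -1.38 ± 0.16 and -0.59 ± 0.12). DUSP16, another JNK and p38 phosphatase gene, was at 2.83 CPM with the combination, 8.73 with MI-3454, 8.24 with gilteritinib and 10.4 with DMSO, a change of -1.85 ± 0.20 with the combination (edgeR adjusted p = 7.3e-07) and an interaction of -1.27 ± 0.28 (adjusted p = 0.0074). DUSP10, of the same class, rose with the combination (0.59 ± 0.13), with MI-3454 (0.50 ± 0.14) and with gilteritinib (0.44 ± 0.13).

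Among 14 tested Sprouty, SPRED and RAS inhibitor genes outside the members, 3 rose and 4 fell with the combination, 0 and 2 with MI-3454, and 1 and 3 with gilteritinib. SPRY1, the Sprouty gene outside the members with enough counts, had log2 changes of -0.75 ± 0.20 with the combination and -0.89 ± 0.19 with gilteritinib (edgeR adjusted p = 0.0039 and 0.0079). With MI-3454 SPRY1 was not called (-0.03 ± 0.17, edgeR adjusted p = 0.93). RASA1, a RAS GTPase-activating protein gene, fell by 0.86 ± 0.11 with the combination and by 0.67 ± 0.12 with MI-3454. With gilteritinib RASA1 was not called (0.23 ± 0.11, edgeR adjusted p = 0.16).

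The kinases and adaptors of the cascade and the genes switched on by ERK were counted apart. Of 20 tested kinase and adaptor genes, 3 rose and 7 fell with the combination, 0 and 2 with MI-3454, and 0 and 2 with gilteritinib. KSR1, the scaffold that joins RAF to MEK, was at 54.3 CPM with the combination, 65.6 with MI-3454, 32.0 with gilteritinib and 122 with DMSO, and it was called lower under all 3 treatments (log2 changes of -1.18 ± 0.10, -0.90 ± 0.11 and -1.94 ± 0.10). Of 21 ERK output genes, 5 rose and 13 fell with the combination (median log2 change -0.78), 3 and 6 with MI-3454 (-0.15), and 2 and 6 with gilteritinib (-0.04). SPRY1 was counted in this list and also among the RAS inhibitor genes. EGR3 had 0.310 CPM with the combination, 1.79 with MI-3454, 12.7 with gilteritinib and 25.1 with DMSO. EGR1 had log2 changes of -2.17 ± 0.18 with the combination and -1.20 ± 0.25 with MI-3454 (edgeR adjusted p = 2.5e-08 and 0.005). With gilteritinib EGR1 was not called (-0.31 ± 0.25, edgeR adjusted p = 0.45). FOS, by contrast, rose under all 3 treatments, by log2 changes of 0.90 ± 0.11 with the combination, 0.62 ± 0.14 with MI-3454 and 0.83 ± 0.12 with gilteritinib (edgeR adjusted p = 3.6e-06, 0.0087 and 0.00062).

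The stress kinases p38 and JNK, on which DUSP8 acts, were listed together with the kinases upstream of them. Of 13 tested genes in that list, 6 rose and 3 fell with the combination, 5 and 2 with MI-3454, and 2 and 0 with gilteritinib. Split after the values were seen, the 6 tested p38 and JNK genes themselves gave 2 higher and 3 lower with the combination and 2 and 2 with MI-3454. The 7 upstream kinase genes gave 4 higher with the combination and 3 with MI-3454, and both genes called with gilteritinib were of this kind. Of all genes tested, 29.2% were called higher and 28.4% lower with the combination, 10.1% and 8.95% with MI-3454, and 6.92% and 8.18% with gilteritinib. MAPK14, which encodes p38 alpha, was at 464 CPM with the combination, 369 with MI-3454, 171 with gilteritinib and 146 with DMSO, a log2 change of 1.67 ± 0.11 with the combination and 1.33 ± 0.12 with MI-3454 (edgeR adjusted p = 1.2e-09 and 8.7e-06). MAPK11, which encodes p38 beta, was at 1.25 CPM with the combination, 3.61 with MI-3454, 7.44 with gilteritinib and 7.78 with DMSO, a change of -2.62 ± 0.26 with the combination. MAP3K5, an upstream kinase, rose with the combination (1.83 ± 0.11), with MI-3454 (1.14 ± 0.13) and with gilteritinib (0.54 ± 0.12). The counts were not tested against other lists.

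**Figure D5:**
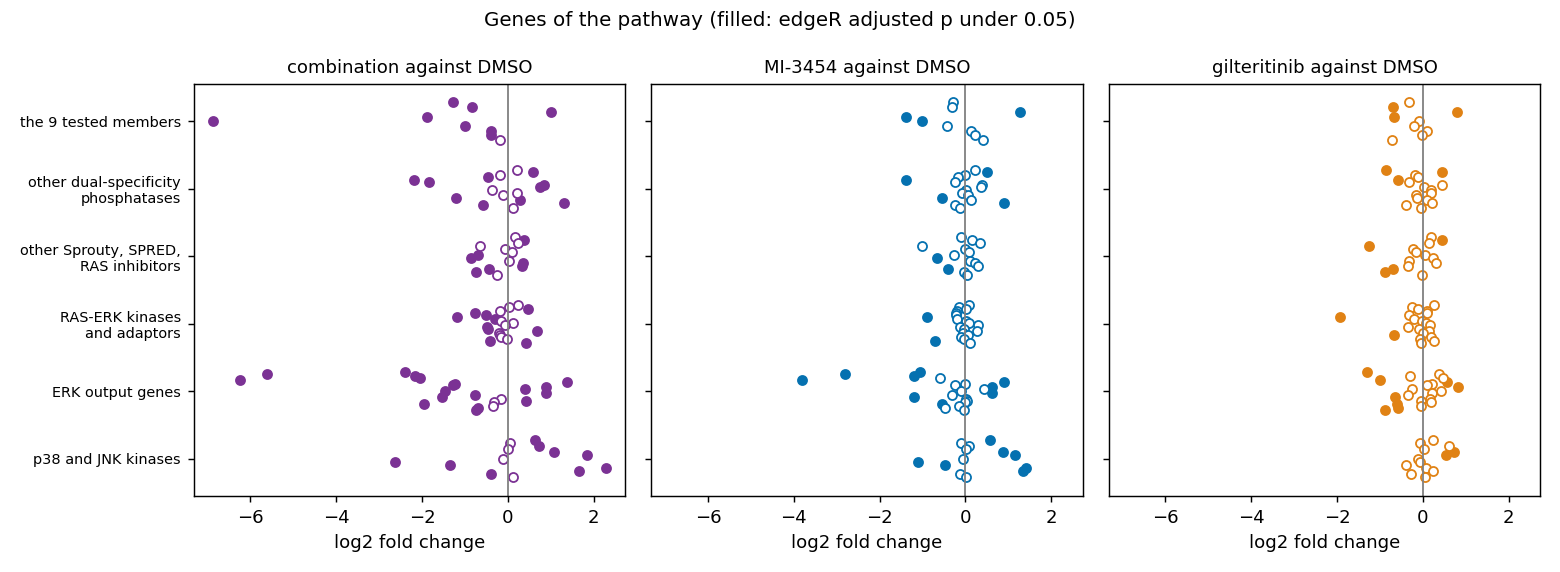
Log2 fold change against DMSO of single genes (points; filled, edgeR adjusted p under 0.05; n = 3 per group) for the 9 tested members and the genes of 5 pathway lists, for the combination, MI-3454 and gilteritinib. Genes lie on both sides of 0 in every list, and the ERK output gene EGR3 reaches -6.24 with the combination.

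For the 3 members with the widest range between groups, the genes of most similar pattern were named by the smallest root mean square difference of centred log2 CPM over the 12 libraries, which share their depth and composition. The genes nearest to DUSP6 were ETS1 (0.157), SWAP70 (0.186) and PSRC1 (0.194). ETS1, a transcription factor gene, was at 27.96 CPM with the combination, 35.2 with MI-3454, 21.3 with gilteritinib and 15.6 with DMSO, the same order as DUSP6. Nearest to DUSP7 were PLAUR (0.148), PPARD (0.156) and HELZ2 (0.175), and PLAUR, the urokinase receptor gene, was at 71.0 CPM with the combination, 109 with MI-3454, 159 with gilteritinib and 227 with DMSO, the order of DUSP7. DUSP8 was followed less closely, by INHBA (0.519), LINC03040 (0.541) and ALDOC (0.543). INHBA, an activin subunit gene, had 2.90 CPM with the combination, 45.1 with MI-3454, 59.0 with gilteritinib and 129 with DMSO. The nearest other member was further away in each case, at 0.52 for DUSP6 (SPRY2), 0.456 for DUSP7 (DUSP2) and 1.37 for DUSP8 (DUSP7).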

How the data were processed

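RNA of 12 MOLM-13 libraries was measured after ribosomal RNA depletion and TruSeq preparation, per the labels' protocols. The authors deposited, for each library, raw counts of reads over 60668 genes together with 5 summary counts. Build GRCh38 and the tools HTSeq 0.11.2, STAR 2.7.1a, cutadapt 2.1 and DESeq2 are listed, without roles, per the submitters' processing notes. The annotation release and strand setting were not stated, so reads of a gene and an antisense partner may not be told apart. Summary counts stayed out of library sizes: reads outside exons were 15.6% to 36.5% and ambiguous reads 4.65% to 10.3% of uniquely placed reads. Symbols came from a gene name table (60340 identifiers matched) and lengths and coordinates from GENCODE release 29 (58561 matched). No 2 libraries were identical.

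The tests ran in edgeR 4.0.16 (R 4.3.3). Genes passing filterByExpr over the 4 groups (13972 of 30849 with at least 1 count, 9 of the 10 members) were tested with the quasi-likelihood F test, TMM scaling and Benjamini-Hochberg adjustment over all genes, called under 0.05. Each pair of groups was fitted on its 6 libraries and the interaction on all 12. SE is the log2 change over the root of F. Levels are CPM with TMM over 12 libraries, as mean ± SD. Likeness used log2(CPM + 0.5). Exact 95% intervals are conditional binomial, and a count of 0 was read as at most 3 counts. The fits of MI-3454 against DMSO and of the interaction were run on simulated data in which few genes changed. No other comparison was simulated. The alternatives were DESeq2 1.42.0 with its size factors, total counts in place of TMM, no filter beyond 1 count, at least 10 counts in 3 libraries, all 12 libraries in 1 fit, the replicate block, each library left out, and the libraries highest in RN7SL1 left out.

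Deviations of same-numbered libraries from their group means correlated across genes at 0.14, 0.39 and 0.11 for gilteritinib and DMSO, each over 0.1. Differently numbered libraries of these groups correlated at -0.30 to 0.21, overlapping that range, so whether the numbers pair those cultures is uncertain. The pair at 0.39, gilteritinib 2 and DMSO 2, were also the libraries highest in RN7SL1. In no other comparison did every pair pass 0.1. All 10 members were named, with up to 4 called genes of largest change per list and comparison and the nearest genes by pattern; uncalled list members could be named. The members and lists were chosen with earlier results of these data known.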

Additional observations from a re-analysis of the deposited data

Results flagged for a closer look

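For 4 members the effect of gilteritinib differed with and without MI-3454 by the interaction test in edgeR over 12 libraries. The interaction log2 changes were -1.05 for DUSP6, -5.77 for DUSP8, -0.60 for SPRY2 and -0.63 for SPRED2. For DUSP6, gilteritinib gave -0.26 in the presence of MI-3454 (not called) and 0.78 in its absence. For SPRY2 the values were -0.61 and -0.02, and for SPRED2 -0.52 and 0.10, called with MI-3454 and not called without it. For DUSP8 the fitted values were -5.85 and -0.09.

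Reads placed uniquely outside annotated exons averaged 32.6% with the combination, against 18.1% with DMSO (SD 4.02 and 2.03, n = 3 each), in counts that no comparison of genes used. Their part in the members' changes was not tested.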

How the results depend on the processing

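Of 34 member calls over the 7 comparisons, 24 held under every alternative run, and no called log2 change of a member reversed. The calls of DUSP6 and DUSP7 against DMSO, and of DUSP8 and DUSP2 with the combination against each other group, were among those that held. Of 864 log2 changes recomputed, 26 lost their call and 13 gained one; the causes were not tested. With total counts in place of TMM, the members' log2 changes for the combination against DMSO lay higher by a median of 0.10.

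The replicate block gave 5 members for gilteritinib against DMSO (3 without it) and 4928 genes (2110). For MI-3454 against DMSO it gave 1678 genes (2658 without it). Same-numbered MI-3454 and DMSO cultures correlated at 0.20, -0.32 and -0.39, which showed no pairing but cannot settle whether they were paired. Beside the calls named in the report, the block ended that of DUSP5 for the combination against MI-3454 (adjusted p = 0.066) and changed no other member call. Without the library highest in RN7SL1 in each group, genes called numbered 4250 for gilteritinib against DMSO, 5133 for MI-3454 against gilteritinib (2430 with all libraries) and 3478 for the interaction (2136).

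Leaving out 1 library at a time gave 7 to 8 members called for the combination against DMSO, 2 to 3 for MI-3454 against DMSO, 3 in every case for gilteritinib against DMSO, 4 to 8 for the combination against MI-3454, 5 to 6 for the combination against gilteritinib, 1 to 4 for MI-3454 against gilteritinib and 4 to 5 for the interaction. Genes called ranged from 6802 to 8558, 1815 to 2961, 1243 to 3985, 2456 to 5074, 7270 to 8298, 1588 to 4690 and 1305 to 2698 in the same order. Depth limits DUSP4, with 7 counts in all, and DUSP8 with the combination.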
